A study of Homo sapiens with 12 samples.

Results

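The genes described are NAT10, THUMPD1 and the 8 core proteins of the small nucleolar ribonucleoprotein particles (snoRNPs), 10 of 20056 protein-coding genes in RefSeq's GRCh38.p14 annotation. Their ac4C peaks were found in acetylated RNA immunoprecipitation sequencing (acRIP-seq) of SW620 cells, a human colorectal cancer line, in which an anti-ac4C antibody collected the RNA fragments that carry N4-acetylcytidine (ac4C) before sequencing. There were 3 libraries of cells with the control shRNA (shControl, labelled WT, called control here) and 3 of cells with an shRNA against NAT10 (shNAT10, NAT10 knockdown), both made by stable lentiviral infection, puromycin selection and growth in the same medium. The labels do not say which NAT10 shRNA was used or whether the libraries came from separate cultures, so every p-value measures the spread between these libraries, which may be technical. A peak was given to a gene when its midpoint lay inside the gene span on the gene's strand. The study asked which mRNAs carry ac4C that depends on NAT10, and these genes encode the enzyme itself and the machinery around it.

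NAT10 is the acetyltransferase that writes ac4C on RNA. THUMPD1 is the adaptor that brings it to tRNA, and box C/D small nucleolar RNAs (snoRNAs) guide it to small-subunit ribosomal RNA. Box C/D particles, built of FBL, NOP56, NOP58 and SNU13, mainly direct ribose methylation of RNA, and box H/ACA particles, built of DKC1, NHP2, NOP10 and GAR1, mainly direct pseudouridylation.

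The control libraries listed 18241 to 22619 peaks and the knockdown libraries 17877 to 28752, with the most in knockdown replicate 1. Peaks fell in 12092 protein-coding genes when the 6 lists were pooled, and 5891 genes were listed by every library. The lists give no read counts, so depth is unknown, a gene without a peak cannot be called unmodified, and more mRNA and more ac4C per mRNA cannot be told apart. The score of a peak, which starts at 50 in these lists and is tied at 3100 for between 7.61% and 13.7% of each list, was turned into a percentile within its library, where a higher percentile is a stronger peak.

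Within the 10 genes, 11, 10 and 9 peaks were listed in control and 17, 8 and 13 under NAT10 knockdown. The means were 10.0 ± 1.00 and 12.7 ± 4.51 (SD, n = 3), and the groups overlapped. Per 10000 peaks of a library, the control values were 6.03, 4.42 and 4.49 and the knockdown values 5.91, 4.48 and 6.83. The scaled values of both groups covered nearly the same range. Without knockdown replicate 1 the difference in the summed number, knockdown minus control, was 0.500 in place of 2.67. At least 1 library listed a peak for 9 of the 10 genes, and every library did for 3 of them, FBL, NOP58 and GAR1. The mean number was higher in knockdown for 5 genes, higher in control for 3 and equal for 2. The equal genes include NOP56, which had no peak, so the counts to compare are 5 and 3 of the 9 genes with a peak. Among all genes with a peak the mean was higher in knockdown for 44.7% and higher in control for 31.9%, so these counts lie near the background.

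**Figure D1:**
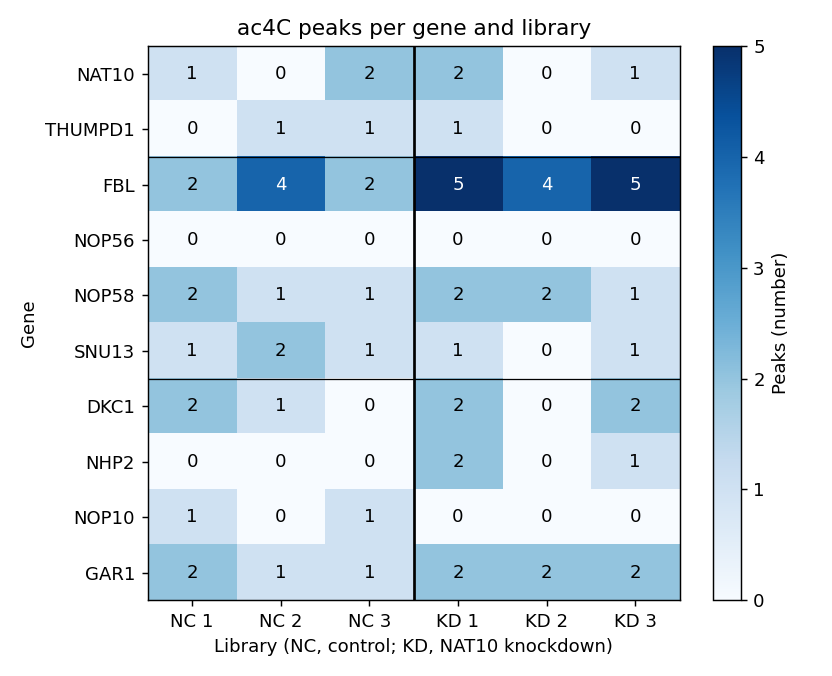
Number of ac4C peaks in each of the 10 genes (rows) in the 3 control (NC) and 3 NAT10-knockdown (KD) libraries (columns), with darker cells for more peaks. FBL had the most peaks in every library or shared the most, from 2 to 5, and NOP56 had 0 in all 6.

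None of the 10 genes was listed by every library of one group and by none of the other, which 84 of the 12092 genes with a peak were (0.695%; 0.331% in control only and 0.364% in knockdown only). None had peak numbers that did not overlap between the groups, against 2.22% of those genes (0.653% higher in control and 1.57% higher in knockdown). Among the 5891 genes with a peak in all 6 libraries, the percentile of the strongest peak did not overlap between the groups in 9.49% (4.6% higher in control and 4.89% higher in knockdown), and neither NOP58 nor GAR1 was among them. The strongest FBL peak was tied at a score of 3100 in every library, so its percentile follows only the share of tied peaks and cannot be compared. The two-sided exact permutation test gave an unadjusted p of 0.2 for FBL and 0.4 or more for every other gene, where 3 against 3 libraries allow no p below 0.1. After Benjamini-Hochberg adjustment over all genes with a peak, each of the 9 tested genes had an adjusted p of 1 (exact permutation test).

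**Figure D2:**
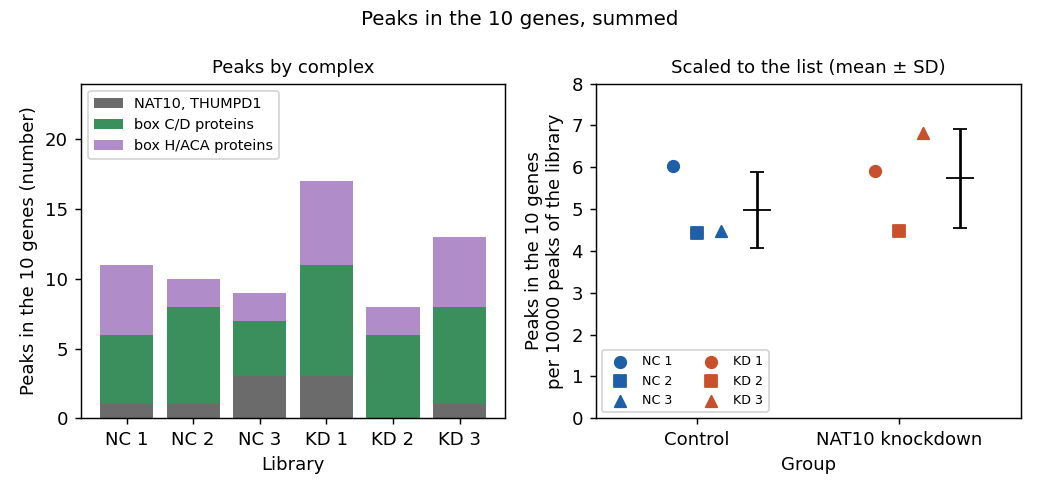
Left, number of peaks in the 10 genes in each control (NC) and NAT10-knockdown (KD) library, stacked by complex. Right, the same sum per 10000 peaks of the library, with 1 point per library and bars for mean ± SD. Knockdown replicate 1 had the largest sum, 17, and the scaled sums of the groups overlapped, 4.42 to 6.03 in control and 4.48 to 6.83 in knockdown.

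Several of these genes had a peak at the gene's start, some in every library and some in only 1. Peaks of the 6 libraries that overlapped on a strand were merged into 21 regions, and 7 of them, in 7 genes, had a midpoint within 500 bases of the 5' end of the gene (33.3%, against 14.3% of the regions in all genes). These shares were not adjusted for the length of the gene span, which is only 1418 bases in NOP10. The 3 regions found in all 6 libraries, in FBL, NOP58 and GAR1, were all among these 7, and in all genes 28.2% of the regions found in every library lay that close to the 5' end. The start regions of THUMPD1, NOP10, NAT10 and NHP2 were listed in 3, 2, 1 and 1 libraries. DKC1 had a further peak over its start in all 6 libraries whose midpoint missed the gene span by 2.5 bases, so it is outside the counts above and was singled out after its values were seen. The stretches shown here are the 15 bases before and the 15 bases from the annotated start, read on the gene's strand, because several of the shared peaks lie over them. Capitals mark CCG, the context of the ac4C sites of small-subunit ribosomal RNA.

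FBL: CCGcgcgcctgcgctcttttccacgtgcga
GAR1 upstream start: gtgctgcaaaggacgCCGctgttatacgtc
GAR1 downstream start: aagtaccCCGcgggtgggtgtgtgcgcaag
DKC1: gggcagtgcgcgggtgggtgggtcctagca
THUMPD1: ctcatatCCGacgtcaccagttcgcgCCGg
NOP10: cgaacacgtgacgcggtcgggcggaccact
NAT10: cacgtgctgtctaccagttcctgagaggga
NHP2: cagctgatgacctggaagtgatgcctaaag
NOP56: gagcgcgctagCCGcattgcgagCCGaacc

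The stretches are those of RefSeq on GRCh38.p14, whose promoter table held 8 of the 10 genes and not NOP58 and SNU13. They lie at chr19:39846365-39846394 on the minus strand for FBL, chr4:109815495-109815524 and chr4:109815747-109815776 on the plus strand for the upstream and downstream starts of GAR1, and chrX:154762849-154762878 on the plus strand for DKC1. The others lie at chr16:20741804-20741833 (minus) for THUMPD1, chr15:34343122-34343151 (minus) for NOP10, chr11:34105614-34105643 (plus) for NAT10, chr5:178153871-178153900 (minus) for NHP2 and chr20:2652617-2652646 (plus) for NOP56. Peaks covered the annotated start in all 6 libraries for FBL and DKC1. For GAR1 they covered the downstream start in all 6 libraries and the upstream one, at the 5' end of the gene span, in none. The annotated start was covered in 2 libraries for THUMPD1 (control replicate 3 and knockdown replicate 1), in control replicates 1 and 3 for NOP10, in control replicate 3 for NAT10, in knockdown replicate 1 for NHP2 and in none for NOP56. CCG stood in the stretch of FBL, GAR1 (at both starts), THUMPD1 and NOP56 and not in that of DKC1, NOP10, NAT10 or NHP2, so genes with and without a shared start peak were found on both sides. Over all 35116 promoter windows of the table, 38.9% held CCG in this stretch on the gene's strand. In the whole window, 250 bases before to 50 from the start, 80.9% held it on the gene's strand, 81.4% on the other strand and 88.1% on either. The NOP56 window held 20 copies on the gene's strand, more than 97.3% of all windows, and no library listed a peak in it. A match is a description of the letters and does not locate a modified base.

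NAT10, the gene the shRNA targets, had 1, 0 and 2 peaks in control and 2, 0 and 1 in the knockdown libraries. The mean was 1.00 ± 1.00 in both groups (SD, n = 3; two-sided exact permutation test, p = 1), and replicate 2 of each group listed none. Peak numbers do not give mRNA levels, so these values are no check of the knockdown. The groups listed their peaks at different places of the gene. Control replicates 1 and 3 had a peak near the 3' end with the same edges, 34143445 to 34143528 on chromosome 11, at the 9.95 and 38.3 percentile, and no knockdown library listed it. Knockdown replicates 1 and 3 had a peak ending at 34136775, with starts at 34136704 and 34136642, at the 85.3 and 63.5 percentile, and no control library listed it. A peak over the gene start was listed in control replicate 3 only (43.0 percentile), and a weak one from 34133026 to 34133142 in knockdown replicate 1 only (5.87 percentile). None of the 4 NAT10 regions was thus shared between the groups, and none was found in all 3 libraries of a group. Each was listed by only 1 or 2 libraries, and a region in 1 library cannot be shared. Of the regions in all genes, 20.1% were listed only in control libraries and 25.2% only in knockdown libraries. With only the upper 50% of scores, no control library kept a NAT10 peak and knockdown replicates 1 and 3 kept 1 each, which leaves the peak ending at 34136775.

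THUMPD1, the tRNA adaptor, had 1 region, at its start on chromosome 16. It was listed in control replicates 2 and 3 and in knockdown replicate 1, at the 29.2, 37.6 and 52.9 percentile, and its groups overlapped (two-sided Fisher's exact test on libraries with a peak, p = 1). Its inner edge, 20741509, was the same in the 3 libraries, while the outer edge moved from 20741811 to 20741822 and 20741939. The span of ACSM3 also holds the midpoints of all 3 peaks, so THUMPD1 had none once peaks shared between genes were left out.

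The genes most like NAT10 and THUMPD1 were looked for among genes with peaks in the same libraries, by the mean absolute difference in the percentile of the strongest peak. For NAT10, 51 genes had the same pattern, and the nearest over 4 libraries were YBEY, ADAM17 and TMEM186, which differed by 14.96, 16.6 and 19.3 percentile points. For THUMPD1, 169 genes had the same pattern, and the nearest over 3 libraries were STARD13, CDS1 and GULP1, which differed by 5.76, 5.81 and 6.37 points.

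**Figure D3:**
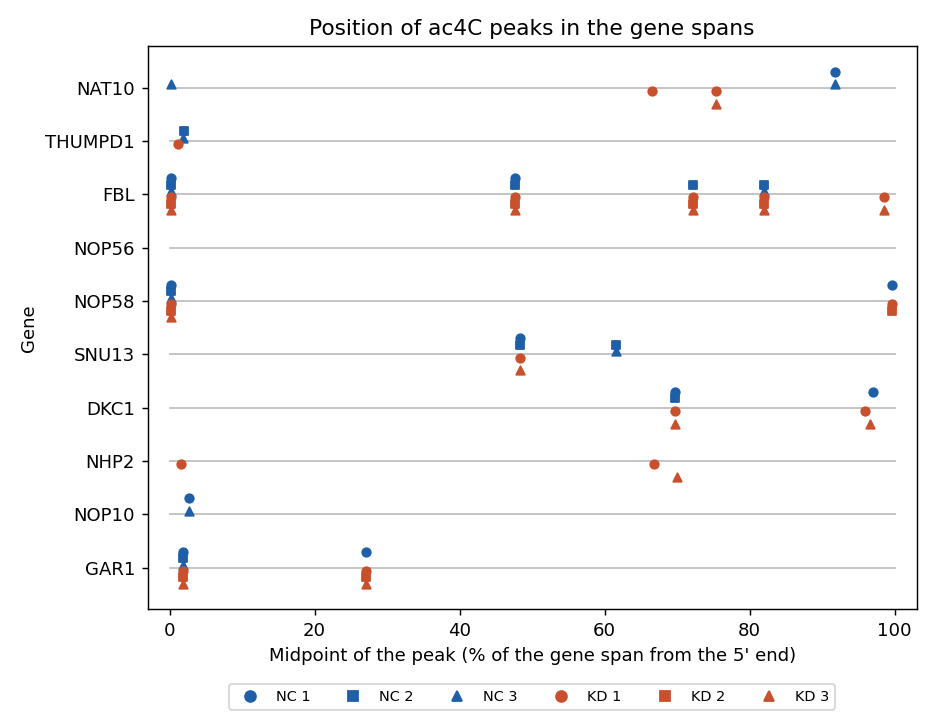
Midpoints of the ac4C peaks of each gene, as percent of the gene span from the 5' end, with symbols for the 3 control (NC, blue) and 3 NAT10-knockdown (KD, orange) libraries. FBL, NOP58 and GAR1 had a start peak in all 6 libraries. The NAT10 peaks of the groups lay at different positions, in only 1 or 2 libraries each.

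FBL encodes fibrillarin, the methyltransferase of the box C/D particle. It had 2, 4 and 2 peaks in control and 5, 4 and 5 in the knockdown libraries, which is the largest difference in mean number among the 10 genes. The means were 2.67 ± 1.15 and 4.67 ± 0.577 (SD, n = 3; two-sided exact permutation test, p = 0.2), and the groups met at 4 peaks. The FBL peaks formed 5 regions, each with the same edges in every library that listed it. The start region, 39846291 to 39846414 on chromosome 19, had a score of 3100 in all 6 libraries. The region from 39840617 to 39840787, in the middle of the span, also had 3100 in each of the 5 libraries that listed it and was missing from control replicate 3.

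Of the 6 more peaks that the knockdown libraries listed in FBL, that middle region gave 1 and the 3 regions toward the 3' end gave 5. The region from 39837711 to 39837843 was listed at the 9.77 percentile in control replicate 2 alone and at 49.5, 69.5 and 57.5 in the knockdown libraries. The region from 39836556 to 39836668 was at 16.3 and 56.4 in control replicates 2 and 3 and at 51.1, 65.6 and 59.5 in the knockdown libraries. The last region, from 39834458 to 39834813, begins on the last base of the gene span and was found in knockdown replicates 1 and 3 only, at 72.9 and 69.8. Every knockdown library therefore listed more of these 3 regions than control replicates 1 and 3, while control replicate 2 listed as many as knockdown replicate 2. When each list was cut to its 17877 highest-scored peaks, FBL had 2, 2 and 2 peaks in control and 5, 4 and 5 in the knockdown libraries. With only the upper 50% of scores it had 2, 2 and 2 against 4, 4 and 5. In both settings the groups did not overlap (two-sided exact permutation test, p = 0.1 in each, the smallest possible), as did those of 2.39% and 2.2% of all genes with a peak. The gene table names pseudogenes of 4 of the 10 genes, 1 of FBL (FBLP1, beside the paralog FBLL1), 3 of NOP56, 2 of NHP2 and 1 of THUMPD1. How reads shared with such copies were placed is not given in the sources used here, so the peak numbers of these 4 genes, the absence of NOP56 peaks included, are uncertain.

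NOP56 and NOP58 are the paired scaffold proteins of the box C/D particle, and their lists differed completely. NOP56 had no peak in any library, on either strand. The nearest listed peak lay 5053 bases away in 4 libraries and 143516 and 143553 bases away in knockdown replicates 2 and 3. NOP58 had 2, 1 and 1 peaks in control and 2, 2 and 1 in the knockdown libraries (means 1.33 ± 0.577 and 1.67 ± 0.577, SD, n = 3; two-sided exact permutation test, p = 1). Its start region, 202265716 to 202265986 on chromosome 2, had the same edges in all 6 libraries. It was at the 44.1, 71.2 and 66.1 percentile in control and at 85.0, 54.2 and 57.1 in the knockdown libraries, which overlapped widely (two-sided exact permutation test, p = 0.7). A second region at the 3' end, starting at 202303386, was listed in control replicate 1 and knockdown replicates 1 and 2, at 73.5, 57.3 and 10.5. The introns of NOP56, NOP58 and DKC1 are known to carry snoRNAs. The gene table places 5 snoRNA genes within the span of NOP56, 4 within NOP58 and 2 within DKC1, and no listed peak overlapped any of them. The lists are limited to mRNA, so they cannot say whether snoRNAs carried ac4C.

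SNU13, which binds the kink-turn of box C/D RNAs and also of U4 spliceosomal RNA, had 1, 2 and 1 peaks in the control and 1, 0 and 1 in the knockdown lists (p = 0.6, two-sided exact permutation test). None of its peaks lay at the gene start. A region starting at 41682356 on chromosome 22 was found in 2 libraries of each group, at the 9.47 and 40.5 percentile in control replicates 1 and 2 and at 55.6 and 8.41 in knockdown replicates 1 and 3. A weaker one, from 41680244 to 41680364, was found in control replicates 2 and 3 only, at 16.1 and 19.5.

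DKC1 encodes dyskerin, the pseudouridine synthase of the box H/ACA particle and a protein of telomerase. By the midpoint rule it had 2, 1 and 0 peaks in control and 2, 0 and 2 in the knockdown libraries (means 1.00 ± 1.00 and 1.33 ± 1.15, SD, n = 3; two-sided exact permutation test, p = 1). Its start peak outside that rule ran from 154762742 to 154762981 on chromosome X in all 6 libraries. It was at the 86.5, 84.0 and 82.8 percentile in control and at 92.7, 74.5 and 83.2 in the knockdown libraries. The means, 84.5 ± 1.90 and 83.5 ± 9.13 (SD, n = 3), differed by less than the spread of the knockdown libraries (p = 0.9, two-sided exact permutation test). The internal region from 154773131 to 154773249 was at 48.6 and 65.0 in control replicates 1 and 2 and at 27.3 and 24.4 in knockdown replicates 1 and 3, so it ranked lower in the knockdown libraries that listed it. The 3' region, starting at 154776799, was strong where listed, at 86.9 in control replicate 1 and at 84.8 and 70.1 in knockdown replicates 1 and 3.

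**Figure D4:**
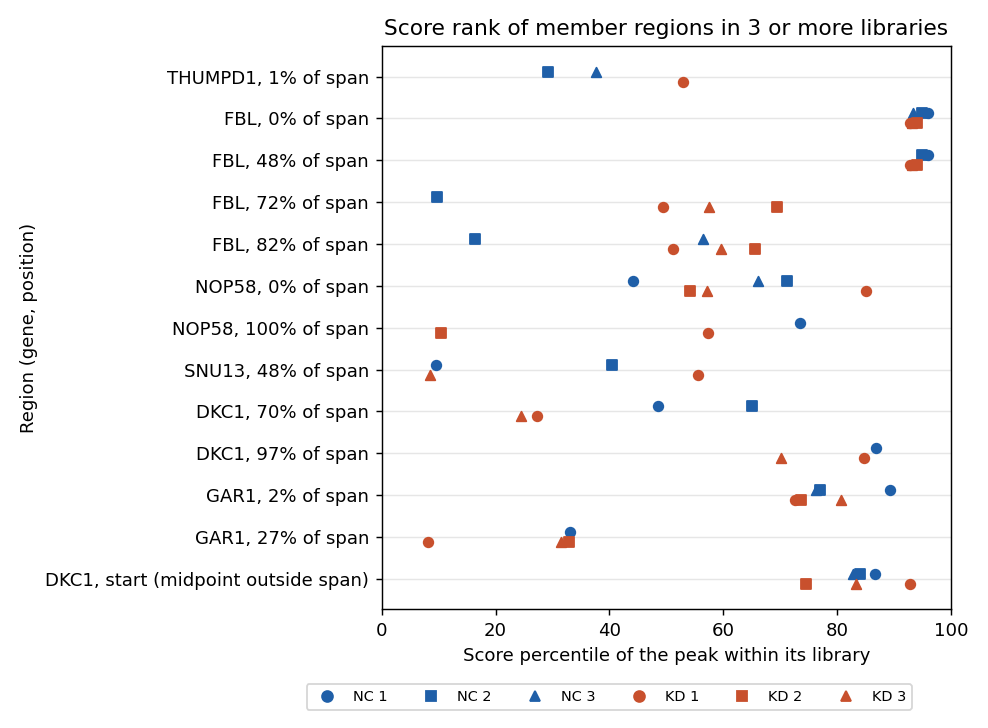
Percentile of the peak score within its library for regions of the 10 genes listed in 3 or more libraries, and for the DKC1 start peak whose midpoint lies outside the gene span. Blue symbols are the control (NC) and orange symbols the NAT10-knockdown (KD) libraries. The start regions of FBL, GAR1 and DKC1 sat above 70 in every library, and the FBL region at 72% of the span was at 9.77 in its only control library and between 49.5 and 69.5 in the knockdown libraries.

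NHP2 and NOP10, small RNA-binding and linking proteins of the H/ACA particle, each had peaks in libraries of 1 group only, and in opposite directions. NHP2 had no peak in control and 2, 0 and 1 in the knockdown lists (2 of 3 against 0 of 3 libraries, Fisher's exact test, two-sided p = 0.4). Its start peak in knockdown replicate 1, 178153658 to 178153967 on chromosome 5, had a score of 3100, and a region ending at 178150993 was at the 51.2 and 40.5 percentile in knockdown replicates 1 and 3. NOP10, with a span of 1418 bases the shortest of the 10 genes, had 1, 0 and 1 peaks in control and none in the knockdown lists (p = 0.4, two-sided Fisher's exact test). Its peak, 34343020 to 34343177 on chromosome 15, was at the 7.50 and 5.06 percentile, with scores of 61.4 and 59.3, close to where the lists begin. With 3 against 3 libraries, Fisher's exact test cannot give a p below 0.1, so it could not decide either difference. Each gene lacked a peak in at least 1 library of the group that listed it. The share of all genes split 2 to 0 in this way was not counted, so neither gene can be set against a background. The split also occurred elsewhere, toward control in SAMD11 and FNDC10 and toward knockdown in SLC25A34.

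GAR1, the glycine- and arginine-rich protein of the H/ACA particle, had 2, 1 and 1 peaks in control and 2, 2 and 2 in the knockdown libraries (means 1.33 ± 0.577 and 2.00 ± 0.00, SD, n = 3; two-sided exact permutation test, p = 0.4). Its start region, 109815553 to 109815804 on chromosome 4, was at the 89.3, 77.0 and 76.2 percentile in control and at 72.5, 73.7 and 80.7 in the knockdown libraries. The means, 80.9 ± 7.32 and 75.6 ± 4.43 (SD, n = 3), differed by less than the SD of the control libraries (p = 0.4, two-sided exact permutation test). Without control replicate 1, the highest of the 6, the difference, knockdown minus control, was -1.02 in place of -5.24. The number differed through the region from 109817936 to 109818090, which was listed at 33.1 in control replicate 1 and at 8.09, 32.9 and 31.5 in the knockdown libraries. When the median percentile of the gene's peaks is taken, which counts this second region too, the means were 71.5 in control and 49.9 in knockdown, a difference of -21.6 (p = 0.1 by the same exact test, the smallest it can give). In control replicates 2 and 3 that median is the start region alone, while every knockdown library also lists the weaker second region. The share of all genes that reach this p with the median was not counted. The second region was absent in knockdown replicate 1 when each list was cut to its 17877 highest-scored peaks.

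Of the 21 regions, 4 were listed only in control libraries and 5 only in knockdown libraries (19.0% and 23.8%, against 20.1% and 25.2% of the regions in all genes). None was listed in all 3 libraries of one group and in none of the other, against 1.16% of the regions in all genes. Regions found in all 6 libraries made up 14.3% of the 21, against 21.6% of the regions in all genes. Only 3 of the 21 were found in a single library (14.3%, against 39.1%), and 18 were found in several. Of those 18, 12 had the same start and end in every library that listed them (66.7%, against 61.5%). The median percentile over all member peaks of a library was 48.6, 52.7 and 43.0 in control and 57.3, 67.5 and 59.5 in the knockdown libraries. The groups did not overlap in this value, which was not tested. They did overlap once the FBL peaks were left out, or once the DKC1 start peak outside the midpoint rule was counted. Outside FBL, knockdown replicate 2 listed only GAR1 peaks at 73.7 and 32.9 and NOP58 peaks at 54.2 and 10.5. How often other sets of genes separate in this value was not counted. FBL gave 2, 4 and 2 of the 11, 10 and 9 control peaks and 5, 4 and 5 of the 17, 8 and 13 knockdown peaks, and its part in the difference was not tested.

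Of 31 genes that assemble snoRNPs, belong to the U3 particle or to small-subunit ribosomal RNA maturation, or share the THUMP domain, 25 were listed with a peak by some library and 14 by every library. None was listed by a whole group and missed by the whole other group, and none had peak numbers that did not overlap. The mean number was higher in knockdown for 13, higher in control for 7 and equal for 11, which include the 6 without a peak (IMP3, IMP4, EMG1, TSR3, TRMT11 and TRMT112), against 44.7% higher in knockdown and 31.9% higher in control among all genes with a peak. The median difference of the 25 genes with a peak was 0.333 peaks, against 0 over all genes with a peak. The share of protein-coding genes listed by some library was 60.3%. All 9 box C/D assembly factors and all 7 genes of H/ACA assembly, the Cajal body and telomerase were listed by some library, as were 4 of 6 genes of the U3 particle and small-subunit processome and 3 of 5 of the small-subunit maturation genes. The groups were not tested against each other. The percentile of the strongest peak did not overlap in 1 of the 14, WRAP53, against 9.49% of all genes with a peak in every library, so the list did not stand above that share. WRAP53, a Cajal body protein named after its values were seen, was at 20.6, 53.5 and 53.5 in control and at 60.9, 64.6 and 60.3 in the knockdown lists (two-sided exact permutation test, p = 0.1, adjusted p = 0.672).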

How the data were processed

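Acetylated RNA immunoprecipitation sequencing was analysed from 6 of the 12 samples of the series. The 6 input samples were not used here. According to the labels and methods, total RNA was fragmented and immunoprecipitated with an anti-ac4C antibody. Peaks were called per library, with names of the form MACS writes. The deposited lists, limited to mRNA, hold a score per peak made by the authors, on a scale that is not given in the sources used here. The build is GRCh38 per the submitters' processing notes, and the aligner and caller settings are not given in the sources used here.

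Scores were used only as percentiles within a library, ties at their mean rank. Strands came from the promoter table for 15843 of 20056 protein-coding genes, and for 2194 others, NOP58 and SNU13 among them, from most of their own peaks. The 2019 genes without a strand got no peaks. Differences were tested by exact permutation or Fisher's exact test, two-sided. Benjamini-Hochberg adjustment over all genes tested was made for the permutation tests of peak number and of the strongest peak's percentile per gene. The p-values of Fisher's exact test and of single regions were not adjusted. On simulated lists over 14145 genes the code recovered 200 of 200 planted genes. The planted genes had peaks in every knockdown library and in no control library, which is the pattern called. Their recovery therefore checks the code and not detection in real lists. The 10 genes, the 31 related genes and the rules for naming genes (all 10 members, non-overlapping related genes, and the 3 genes most like NAT10 and THUMPD1) were chosen with earlier results of these data known. Alternatives were the highest-scored 50% of peaks, equal peak numbers (17877), any overlap in place of the midpoint, either strand, the span of 1 gene only, other summaries of the score, a block for the replicate number, and leaving out 1 library at a time. Leaving out genes without a listed strand was added after the data were seen. Python 3.11.15, numpy 2.4.6, pandas 2.3.3, scipy 1.17.1 and matplotlib 3.10.9 were used.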

Additional observations from a re-analysis of the deposited data

How the results depend on the processing

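FBL had more peaks in knockdown libraries in every setting run, by 1.67 to 2.67 peaks, and the summed number over the 10 genes was higher by 0.500 to 5.00. Members with non-overlapping peak numbers went from 0 to 1 (FBL) with the 50% highest-scored peaks and also 1 with equal peak numbers, and ranged from 0 to 2 with a library left out: GAR1 without control replicate 1, FBL and NOP10 without control replicate 2, FBL and NHP2 without knockdown replicate 2. Leaving out a library loosens the criterion, which 4.6% to 6.54% of all genes then met. Over all genes, 84 were listed by a whole group and missed by the other, and 176 to 305 with a library left out. With the 50% highest-scored peaks, the differences, knockdown minus control, turned from -0.333 to 0.333 for THUMPD1 and from -0.667 to 0.333 for SNU13. In that setting no control library kept a peak of either gene, and knockdown replicate 1 alone kept 1 of each. DKC1 went from 0.333 to -0.167 without control replicate 3. For GAR1 the percentile difference of -5.24 ranged from -7.78 to -1.02 with a library left out. The percentile of the strongest NOP58 peak differed by -4.85 and turned to 513.947 on the deposited score scale and to 0.752 without knockdown replicate 2 (-14.6 to 0.752 over the libraries left out). The cause of these changes was not tested. With a replicate block, the difference for FBL was 2.00 (p = 0.5 by an exact sign-flip permutation test, which cannot go below 0.25). A block leaves the mean differences as they were, and the calls by group were not repeated with it. Deviations of same-numbered libraries correlated at -0.178, -0.12 and -0.00275 across genes, and those of differently numbered libraries at -0.0809 to 0.175. Whether same-numbered libraries were paired cannot be told from these values. As depth is unknown, a missing peak cannot be read as absence of ac4C.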
